A study of Mus musculus with 6 samples.

Results

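Paneth cells sit at the base of small intestinal crypts and release granules of antimicrobial proteins into the crypt lumen. The granules hold alpha-defensins, short cationic peptides that damage bacterial membranes, together with lysozyme and other secreted proteins. In the mouse the alpha-defensins are made as inactive precursors that the metalloproteinase MMP7 cuts into the active form, and their genes are a large family of near copies. Wnt signalling is known to drive the Paneth cell programme, and Paneth cells in turn supply Wnt3, EGF and Notch ligands to the neighbouring stem cells.

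The genes described here are the numbered alpha-defensin genes (Defa followed by a digit) and genes of other secreted proteins (Lyz1, Itln1, Mmp7, Ang4, Mptx1, Mptx2 and Habp2). They were taken by symbol, which gave 25 Defa genes and 7 others, 32 of the 21397 genes listed. Pla2g2a, also sought, was not analysed here. RNA was sequenced from small intestinal organoids grown from the ileal crypts of Fpr2f/f mice, aged 8 to 12 weeks, which carry floxed Fpr2 alleles. Control organoids received vehicle (0.1% DMSO) and MMK-1 organoids received MMK-1, a synthetic peptide agonist of formyl peptide receptor 2, both for 5 days. The protocol gives the MMK-1 dose as 1 µmol/L, whereas the treatment label reads 1 mM. Each group had 3 libraries, and each sample was made from the organoids of 3 mice, so that p-values measure the spread between these pooled samples.

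The libraries held between 35512739 and 37537463 fragments, computed from the steps of the deposited FPKM values (fragments scaled to gene length and library total). For a Defa gene of the median length of 418 bases, 1 fragment was worth 0.0637 to 0.0674 FPKM, and a count of 0 allows up to 3 fragments, or 0.191 to 0.202 FPKM, as counting error only. Where a gene is low in every library, its recovered fragments can be too few by a whole factor shared by all libraries. For the 30 members with 1 annotated transcript, the length recovered with them was 0.688 to 1.422 times the annotated length. MMK-1 library 3 stood apart from the other MMK-1 libraries: the chi-square of fragments per gene was 29.3 and 34.2 in its pairs, against 2.81 to 4.8 in the other pairs of one group. Results were therefore also computed without it.

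The organoids expressed the Paneth genes at levels that ranged from 750.2 FPKM, the MMK-1 mean of Defa24, down to single fragments. Defa24 was the highest member in both groups, followed by Lyz1, Itln1, Defa30 and Ang4 in the control libraries. After MMK-1, Itln1 stood above Lyz1. The remaining members lay below 3 FPKM in the control mean.

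Because the Defa genes are near copies, their sequences are shown before their values. All 25 lie on chromosome 8 between positions 21025545 and 21735471 of GRCm38, a span of 709927 bases, and the first annotated transcript of each has 2 exons. The coding sequences of 4 of them, read from GENCODE vM21, are given below, chosen as the 3 with the most fragments and Defa26, which had the largest fold of the tested Defa genes. Capitals mark bases that differ from Defa24.

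Defa24: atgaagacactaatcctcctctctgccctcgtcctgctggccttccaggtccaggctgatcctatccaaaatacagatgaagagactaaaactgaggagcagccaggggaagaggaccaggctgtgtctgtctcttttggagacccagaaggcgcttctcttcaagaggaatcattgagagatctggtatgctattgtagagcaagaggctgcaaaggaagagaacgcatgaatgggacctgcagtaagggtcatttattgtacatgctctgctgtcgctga
Defa30: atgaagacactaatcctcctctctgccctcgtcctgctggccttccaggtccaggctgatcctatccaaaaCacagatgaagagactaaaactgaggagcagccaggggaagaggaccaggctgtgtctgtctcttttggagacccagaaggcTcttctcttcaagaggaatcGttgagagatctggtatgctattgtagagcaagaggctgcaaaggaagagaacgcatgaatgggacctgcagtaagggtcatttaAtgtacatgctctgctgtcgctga
Defa17: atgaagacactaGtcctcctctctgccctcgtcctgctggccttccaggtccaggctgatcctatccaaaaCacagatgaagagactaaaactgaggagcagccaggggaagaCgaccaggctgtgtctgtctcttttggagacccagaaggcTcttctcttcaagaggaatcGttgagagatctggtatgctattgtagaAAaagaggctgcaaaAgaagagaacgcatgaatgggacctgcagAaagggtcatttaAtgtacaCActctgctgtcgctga
Defa26: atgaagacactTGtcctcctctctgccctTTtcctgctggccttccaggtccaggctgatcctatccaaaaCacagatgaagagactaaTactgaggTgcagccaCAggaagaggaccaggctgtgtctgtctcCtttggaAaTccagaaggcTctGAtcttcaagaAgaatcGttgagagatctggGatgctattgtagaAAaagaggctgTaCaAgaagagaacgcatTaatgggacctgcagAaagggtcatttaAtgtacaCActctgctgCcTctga

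All 4 sequences are 282 bases long. Defa30 differs from Defa24 at 4 of these bases, Defa17 at 12 and Defa26 at 30. Over the 300 pairs of Defa genes, the identity of the coding sequences ranged from 61.2% to full identity, with a median of 82.6%. In 6 pairs the coding sequences were the same (Defa2 with Defa33, Defa3 with Defa17, Defa20 with Defa32, Defa23 with Defa31, Defa36 with Defa37, and Defa42 with Defa43).

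Shared sequence was measured as the percentage of 100-base words of a transcript that also occur in a transcript of another gene. The majority of words were shared in 14 of the 25 Defa genes, and for these the split of reads among copies is uncertain, since the treatment of reads that map to several genes is not given in the sources used here. These 14 genes held 1.67% of all Defa fragments in the control libraries and 2.14% in the MMK-1 libraries. The 5 genes with under 5% of words shared (Defa24, Defa26, Defa30, Defa39 and Defa40) held 97.0% and 96.6%. Defa24 had no shared word and Defa30 had 0.334%. The bulk of the counted Defa fragments therefore rested on genes whose words of this length are nearly all their own. These shares are of the fragments as counted. If reads that map to several genes were left out, the 14 genes would be counted too low.

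**Figure D1:**
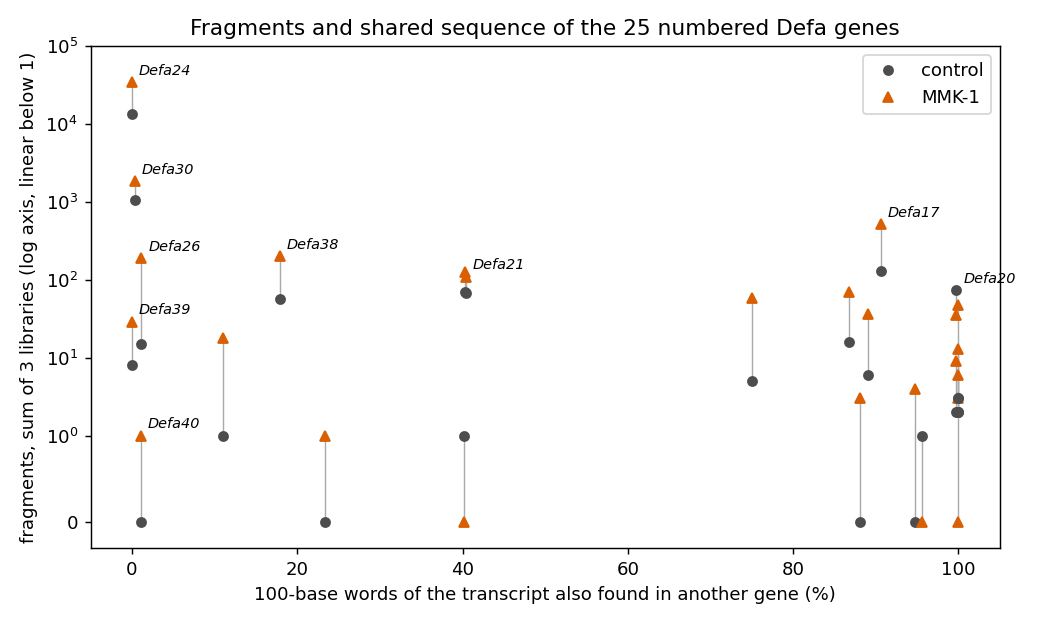
Fragments of each of the 25 numbered Defa genes, summed over the 3 libraries of a group (log axis, linear below 1), against the percentage of its 100-base transcript words found in another gene; circles are control and triangles MMK-1, joined by a line for each gene. Defa24, with no shared word, stands highest, and Defa17, with 90.6% shared, is the highest of the 14 genes with a majority of words shared.

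Of the 32 members, 13 had a mean of at least 1 FPKM over the 6 libraries and were tested with limma across all 10551 such genes. With MMK-1, 11 of the 13 were higher and 0 lower (limma, Benjamini-Hochberg adjusted p up to 0.05), and 2 (Defa20 and Mptx1) did not reach the threshold. Over all genes tested, 48.5% were higher and 24.7% lower by the same rule, so passing it was common. At a change of 2-fold or more on log2(FPKM + 1), a scale that understates low genes, with p up to 0.05, 8 of the 13 were higher and 0 lower, against 3.39% and 3.65% of all genes tested. The groups did not overlap, with MMK-1 higher, in 11 of the 13, as in 50.5% of all genes tested. The median log2 fold change was 1.42 over the tested members and 0.13 over all genes tested. The members that passed the filter are not all members, and Defa26 passed it through its MMK-1 libraries and Defa20 through control library 1. In bulk RNA, more Paneth cells and more RNA per Paneth cell cannot be told apart.

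**Figure D2:**
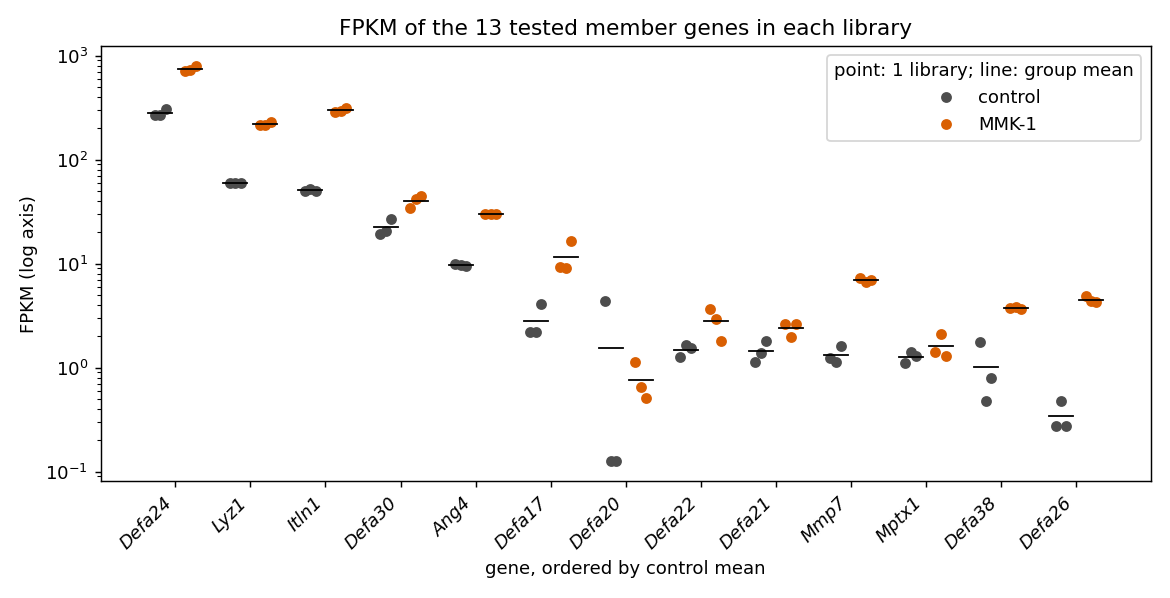
FPKM (log axis) of the 13 tested members, ordered by control mean; each point is 1 library and each line a group mean of 3 libraries. The groups are apart for 11 genes and overlap for Defa20 and Mptx1.

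Defa24, the highest numbered Defa gene by FPKM, read 267.7, 266.8 and 308.8 FPKM in the control libraries and 719.4, 730.0 and 801.3 FPKM in the MMK-1 libraries. All MMK-1 libraries were above all control libraries. The means were 281.1 ± 23.98 and 750.2 ± 44.5 FPKM (SD, n = 3), a ratio of 2.67, and the log2 fold change was 1.42 (SE 0.067, limma adjusted p = 2.931e-07).

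Defa30, the closest relative of Defa24, gave 19.3, 20.71 and 27.13 FPKM in control and 34.36, 42.28 and 44.72 FPKM with MMK-1. The groups did not overlap, although control library 3 and MMK-1 library 1 came near each other. The log2 fold change was 0.83 (SE 0.13, limma adjusted p = 0.0004152).

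Defa17 lies in the class with shared sequence, and its coding sequence is the same as that of Defa3. It held 34, 34 and 63 fragments in control and 135, 135 and 250 with MMK-1, and the groups did not overlap. Replicate 3 was 1.86 times the mean of the other 2 libraries in control and 1.78 times in MMK-1. The log2 fold change was 1.70 (SE 0.24, limma adjusted p = 0.0002057), and 1.45 without MMK-1 library 3. Defa3 and Defa17 together held 39, 36 and 72 fragments in control and 156, 151 and 282 with MMK-1, a ratio of summed FPKM of 4.12.

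Defa26 was near the counting limit in control, with 4, 7 and 4 fragments, and held 67, 61 and 62 with MMK-1. The 2 groups were far apart and even within themselves. The ratio of the mean FPKM was 13.1, and the log2 fold change on log2(FPKM + 1), which understates the change of low genes, was 2.04 (SE 0.078, limma adjusted p = 9.114e-08). Defa26 shares 1.1% of its words with another gene.

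Defa38 held 33, 9 and 15 fragments in control and 66, 69 and 68 with MMK-1. The control libraries were more scattered than the MMK-1 libraries, and the groups did not overlap (log2 fold change 1.29, limma adjusted p = 0.0002916). Defa21 and Defa22 share 40.4% and 40.3% of their words, with each other. Defa21 held 18, 22 and 28 fragments in control and 39, 30 and 41 with MMK-1, and Defa22 held 20, 26 and 24 against 54, 44 and 28. Both were higher with MMK-1, by 0.49 (limma adjusted p = 0.003708) and 0.58 (limma adjusted p = 0.01038) on the log2 scale, but for each the lowest MMK-1 library was close to the highest control library. With limma-voom on the fragments of the tested genes, both passed (adjusted p = 0.02502 and 0.03037). With limma-voom on all genes with at least 10 fragments in total, a setting chosen after seeing the data, neither passed (adjusted p = 0.05784 and 0.05564).

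Defa20 did not pass the test. It held 70, 2 and 2 fragments in control and 17, 10 and 8 with MMK-1, so that control library 1 was above, and the other control libraries below, every MMK-1 library. The log2 fold change was -0.12 (SE 0.53, limma adjusted p = 0.8439), and its sign turned as TPM, with a pseudocount of 0.1 and with limma-voom, but not with upper-quartile scaling. Together with Defa32, whose coding sequence is the same, it gave 72, 2 and 2 fragments against 20, 12 and 12.

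The 17 Defa genes under the filter held 52 fragments in the control libraries and 298 in the MMK-1 libraries. Defa34 held 0, 4 and 1 fragments in control and 14, 15 and 29 with MMK-1. Defa3 held 5, 2 and 9 against 21, 16 and 32, and Defa23 held 2, 2 and 2 against 14, 6 and 16. All 3 have a majority of words shared. By FPKM, 7 of the 17 untested Defa genes did not overlap, with MMK-1 higher, and 10 overlapped, against 18.1% not overlapping and higher among all genes above 0 with a mean under 1 FPKM. The 7 were these 3, Defa2, and Defa29, Defa32 and Defa37, in which fragments were tied. Defa37 read 0, 0 and 2 against 4, 42 and 2, where 1 MMK-1 library held nearly all fragments. Defa39 held 0, 1 and 7 against 8, 5 and 16, and overlapped. Defa2, Defa29 and Defa32 held at most 9 fragments in any library. The other 9 Defa genes (Defa5, Defa28, Defa31, Defa33, Defa35, Defa36, Defa40, Defa42 and Defa43) held at most 10 fragments in all libraries together, too few to show a difference at this depth.

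Counting all 32 members by fragments, the MMK-1 libraries were all above the control libraries in 16, of which 11 were Defa genes, against 29.9% of all genes above 0. Counting by FPKM gave 19, against 34.6% of all genes above 0, because in Defa29, Defa32 and Defa37 the lowest MMK-1 and the highest control library held the same number of fragments and differed only by library total. In 0 of the 32 were the MMK-1 libraries all lower by FPKM, against 18.1% of all genes above 0. In a limma fit over every gene above 0, 16 of the 32 members were higher and 0 lower, against 28.1% and 15.2% of all genes. With limma-voom over genes with at least 10 fragments, a setting chosen after seeing the data, 16 of 22 members were higher and 0 lower, against 38.9% and 20.4% of all genes.

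The FPKM of all numbered Defa genes were also summed. Of 15 alpha-defensin genes listed without a numbered Defa symbol, 0 had a row under that symbol, so the sum is over the numbered genes only. Gene lengths differ within the family (348 to 505 bases) and some words are shared with genes outside the 25, so the sum still depends in part on how shared reads were treated. It was 298.9, 294.7 and 346.1 FPKM in control and 784.3, 801.9 and 882.9 FPKM with MMK-1, with means of 313.2 ± 28.5 and 823.0 ± 52.6 FPKM (SD, n = 3) and a ratio of 2.63. Defa24 made up 89.2% to 91.72% of this sum in every library, so the sum follows that gene. Without Defa24 the means were 32.2 ± 4.83 and 72.8 ± 8.41 FPKM (SD, n = 3), a ratio of 2.27.

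Among the other secreted proteins, Lyz1, which encodes the lysozyme of Paneth cell granules, read 60.17, 59.87 and 60.08 FPKM in control and 218.0, 214.6 and 232.3 FPKM with MMK-1. The control libraries were nearly equal, and the groups were far apart. The ratio of the means was 3.69 and the log2 fold change 1.87 (SE 0.041, limma adjusted p = 5.088e-09).

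Itln1 encodes intelectin-1, a lectin that binds microbial glycans. It rose from 50.3, 52.5 and 49.87 FPKM to 290.7, 294.4 and 316.5 FPKM. Its log2 fold change of 2.54 (SE 0.045, limma adjusted p = 1.826e-09) was the highest of the 13 tested members on log2(FPKM + 1). Defa26 stood above it with a pseudocount of 0.1 (3.41 against 2.56), as TPM (2.66 against 2.58) and with limma-voom (3.63 against 2.56).

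Mmp7, whose product processes the defensin precursors, was low in both groups. It rose from 1.245, 1.147 and 1.607 FPKM to 7.324, 6.665 and 6.954 FPKM, a ratio of the means of 5.24 (log2 fold change 1.78, limma adjusted p = 1.966e-07). Ang4, a secreted ribonuclease with antibacterial activity, rose from 9.911, 9.621 and 9.43 FPKM to 30.39, 29.92 and 29.91 FPKM (log2 fold change 1.54, limma adjusted p = 1.12e-08). In both genes every MMK-1 library was above every control library.

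Mptx1, which encodes a pentraxin of the mucosa, did not pass the test. It held 33, 43 and 39 fragments in control and 40, 61 and 39 with MMK-1, the groups overlapped, and the log2 fold change was 0.19 (SE 0.12, limma adjusted p = 0.1717). Mptx2 held 2 fragments in each group. Habp2, a secreted serine protease gene, was under the filter with 68, 72 and 68 fragments in control and 137, 138 and 148 with MMK-1, without overlap. In the fit over every gene above 0 its limma adjusted p was 0.0001266.

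For every single gene whose groups did not overlap, the exact two-sided permutation test over libraries gave 0.1, the smallest p that 3 against 3 allows. Without MMK-1 library 3, the same 11 tested members were higher and Defa20 and Mptx1 were again short of the threshold.

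**Figure D3:**
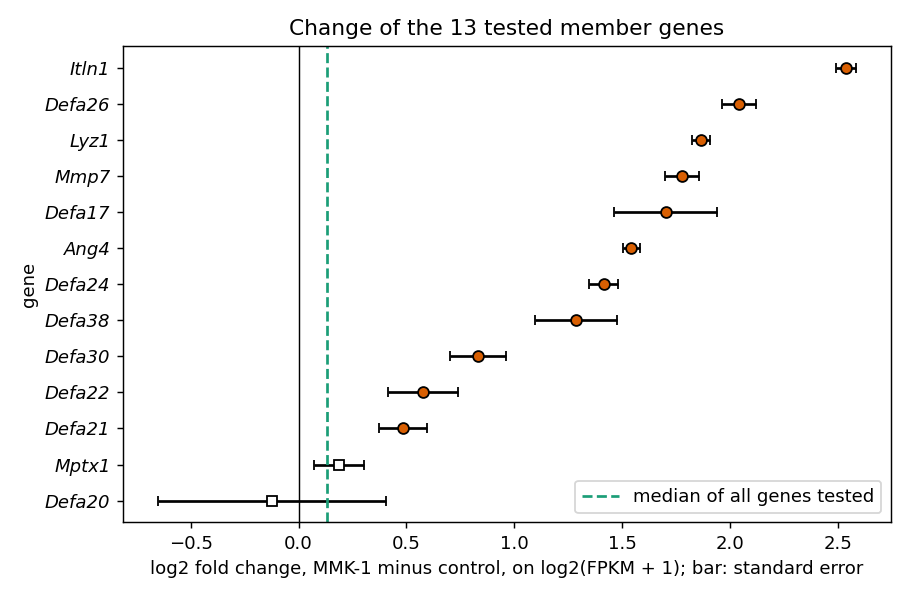
Log2 fold change of the 13 tested members, MMK-1 minus control, on log2(FPKM + 1), with bars for the standard error; filled circles have a limma adjusted p of at most 0.05 and open squares do not. The dashed line is the median of all genes tested, 0.13, and the filled points run from 0.49 for Defa21 to 2.54 for Itln1.

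Relative to Lyz1 in the same library, a comparison chosen after the values were seen and given without a test, 3 of 12 members were higher with MMK-1 without overlap, 6 were lower and 3 overlapped. Over all other genes tested, 0.692% were higher and 98.1% lower relative to Lyz1 without overlap, since Lyz1 itself rose, so a lower ratio was the rule and is not particular to these 6. Itln1 was 0.836, 0.8769 and 0.83 of Lyz1 in control and 1.333, 1.372 and 1.362 with MMK-1. Defa24 was 4.449, 4.456 and 5.139 times Lyz1 in control and 3.299, 3.402 and 3.449 times with MMK-1. Mmp7 and Defa26 were also higher relative to Lyz1, and Defa21, Defa22, Defa30, Ang4 and Mptx1, which did not pass the test on its own, were lower. A ratio within a library shows unequal change and not which gene of the 2 changed.

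**Figure D4:**
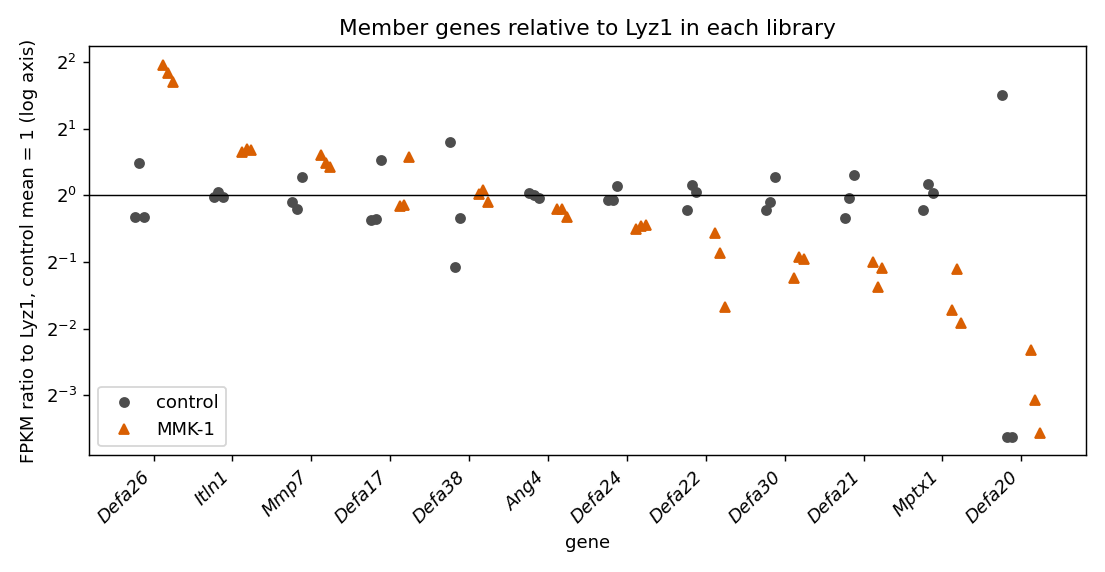
FPKM ratio of 12 members to Lyz1 in each library, divided by the control mean of that ratio (log axis); circles are control and triangles MMK-1 libraries. Defa26, Itln1 and Mmp7 sit above their control libraries, 6 genes sit below theirs, and Defa17, Defa38 and Defa20 overlap.

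The promoters of the Defa genes were searched for CTTTGAA and CTTTGAT on both strands, the core to which TCF factors of the Wnt pathway are known to bind, in the 250 bases before to 50 after the gene start (RefSeq, GRCm38.p6). Of all 32851 promoters, 8.65% held a match. A promoter was given for 22 members, of which 14 held a match: 12 of 15 Defa genes and 2 of the 7 others (Mptx1 and Mmp7). All 12 Defa matches were CTTTGAT, and since these promoters are near copies they are not independent of each other. Defa3, Defa5, Defa17, Defa24, Defa26, Defa29, Defa33, Defa34, Defa39 and Defa40 had no entry. The 250 bases before the start are shown for Defa30, the most abundant Defa gene with an entry, and for Defa22, which holds a pair of matches. Capitals mark ATCAAAG, which is CTTTGAT read on the other strand.

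Defa30, chr8:21134400-21134649, plus strand: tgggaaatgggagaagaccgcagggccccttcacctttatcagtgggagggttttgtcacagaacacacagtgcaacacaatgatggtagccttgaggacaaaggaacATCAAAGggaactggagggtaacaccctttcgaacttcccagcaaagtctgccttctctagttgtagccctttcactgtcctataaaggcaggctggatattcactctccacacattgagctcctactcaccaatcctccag
Defa22, chr8:21162027-21162276, plus strand: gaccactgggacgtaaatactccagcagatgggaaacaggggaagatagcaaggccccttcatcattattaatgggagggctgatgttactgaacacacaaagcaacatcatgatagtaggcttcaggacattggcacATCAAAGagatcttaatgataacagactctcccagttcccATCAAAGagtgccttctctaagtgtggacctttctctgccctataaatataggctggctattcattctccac

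The match starts 142 bases before the gene start in Defa30, and 112 and 72 bases before it in Defa22. A match describes these letters and not a bound site.

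Regulators of the Paneth cell were listed as 16 genes, of which 14 were tested. With MMK-1, 10 were higher, 3 lower and 1 (Atg5) short of the threshold, with a median log2 fold change of 0.43, beside the 48.5% higher and 24.7% lower of all genes tested. Ephb3, a receptor that positions Paneth cells at the crypt base, was higher by 1.72 (limma adjusted p = 1.723e-07) but passed the filter through its MMK-1 libraries, Nupr1 was higher by 1.26 and Sox9, a transcription factor needed for Paneth cells to form, by 1.18. The 3 lower genes were Irgm1 (-0.66), Atg7 (-0.52) and Xbp1 (-0.24). Atg16l1, named after its value was seen like Bhlha15, was higher by 0.32 (limma adjusted p = 0.0005683). Bhlha15, a transcription factor of secretory cells, was higher by 0.78. Ephb2, a receptor related to Ephb3, was higher by 0.95. Of the 4 tested ligands that Paneth cells are known to supply to stem cells, Wnt3 was higher by 0.92 (limma adjusted p = 3.859e-05), having passed the filter through its MMK-1 libraries, and Tgfa by 0.33, while Dll1 (0.15) and Dll4 (0.15) did not pass and Egf was under the filter.

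Other genes of secreted epithelial antimicrobials and related defence proteins were listed as 18 genes, of which 16 had a row and 9 were tested. With MMK-1, 1 was higher, 5 were lower and 3 did not pass, beside 48.5% higher and 24.7% lower of all genes tested. The 5 were Reg1, Reg3a, Reg3b, Reg3g and Pigr, a receptor gene named after its value was seen (log2 fold change -1.03). Reg1 passed the filter through its control libraries. Under the filter, Pla2g10 held 4 fragments in control and 75 with MMK-1, and Cfi held 67 and 189, both named after their values were seen. Reg3b, a lectin that acts on bacteria, read 97.44, 105.7 and 111.0 FPKM in control and 2.152, 2.274 and 2.128 FPKM with MMK-1 (log2 fold change -5.05, limma adjusted p = 2.817e-10). Reg3a was lower by 3.05 and Reg3g by 2.23 on this scale, whereas Pglyrp1, a peptidoglycan recognition protein gene, was higher by 0.67. Of the beta-defensins only Defb37 was tested, and it was lower (log2 fold change -2.18), having passed the filter through its control libraries.

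Markers of other epithelial cells also differed between the groups, in directions that varied with the cell type, and their counts stand beside the same 48.5% higher and 24.7% lower of all genes tested. All 7 stem cell markers were higher, with a summed level of 71.83 to 73.89 FPKM in control and 403.1 to 429.8 FPKM with MMK-1. Of 12 enterocyte markers 10 were lower and 1 higher (14230 to 14400 against 10330 to 11120 FPKM). Of 10 enteroendocrine markers 8 were higher and 2 did not pass (391.6 to 410.4 against 531.0 to 545.8 FPKM), and of 7 goblet markers 5 were higher and 2 lower (1836 to 1982 against 1977 to 2158 FPKM). Tuft markers summed to 1.231 to 1.604 FPKM in control and 1.961 to 2.225 FPKM with MMK-1, with 0 of 7 tested. None of these markers, nor those that follow, was at 0 in all libraries. Of the 9 leukocyte markers with a row, 2 (Cd68 and Itgam) were tested and both were lower. Itgam passed the filter through its control libraries. The 9 summed to 5.576 to 6.305 FPKM in control and 1.925 to 3.018 FPKM with MMK-1, with Ptprc between 0 and 0.0136 FPKM. The 7 mesenchyme markers summed to 4.738 to 5.19 FPKM in control and 3.386 to 4.927 FPKM with MMK-1. Of these, 1 (Vim) was tested and was lower (log2 fold change -0.25, limma adjusted p = 0.04912), although its groups overlapped. The part of these shifts in the Paneth result was not tested.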

How the data were processed

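The authors deposited FPKM values per gene; the submitters' processing notes name HISAT2, HTSeq, R 3.2.0, DESeq2 and mm10, without options. Members and lists were chosen with earlier results of these data known, and every member was named. Whole fragments and library totals were computed from the FPKM steps (tolerance 0.01) and came out whole for 100% of genes above 0. For 4 low members (Defa5, Defa23, Defa33 and Defa37) the length was set by the reference. Groups were compared with limma 3.58.1 under R 4.3.3 (lmFit, eBayes with trend) on log2(FPKM + 1), mean FPKM of at least 1, with Benjamini-Hochberg adjustment. Both steps were tested on simulated data, in which recovered fragments that were not exact were mostly those of low genes and were off by a factor shared by all libraries. All 32 members matched GENCODE vM21 by NCBI gene number. From the pathway lists, the genes with the largest changes were named, up to 3 in each direction. Ephb2, Bhlha15, Atg16l1, Pla2g10, Cfi and Pigr were added after their values were seen. Strandedness is not given in the sources used here.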

Additional observations from a re-analysis of the deposited data

How the results depend on the processing

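The 11 higher and 0 lower members were also found with pseudocounts of 0.1 and 5. At a mean FPKM of at least 5, the members tested were Defa17, Defa24, Defa30, Lyz1, Itln1 and Ang4. All 6 were higher, beside 3441 genes higher and 1926 lower over all genes at that filter. Leaving out each library gave 11 to 12 higher and 0 lower, and 4735 to 5143 genes higher and 2347 to 2960 lower over all genes. Upper-quartile scaling moved the split over all genes from 5118 higher and 2606 lower to 4094 and 3495, and the median log2 fold change from 0.13 to 0.04. A fold change of at least 2 left 358 higher and 385 lower genes, and one of at least 1.5 left 1502 and 855. Over 10551 genes, same-numbered libraries did not deviate together (r = 0.0253, -0.04 and 0.0279). Some Defa genes differed from this. For Defa24, replicate 3 was 1.16 times the mean of the other libraries in control and 1.11 times in MMK-1. For Defa30 the ratios were 1.36 and 1.17, against 0.97 and 1.08 for Itln1 and 1.34 and 0.99 for Mmp7. A replicate block moved the SE of Defa17 from 0.24 to 0.056, and that of Lyz1 from 0.041 to 0.044. With a replicate block, 11 members were higher and 0 lower, and 5024 and 2543 of all genes. Of 200 values of single genes, 193 kept direction and side of the threshold. Defa20 turned to 0.0238 as TPM, 0.43 with a pseudocount of 0.1, and 0.65 with limma-voom, with the same value when genes with at least 10 fragments were taken, a setting chosen after seeing the data; the cause was not tested. Defa22 also missed the threshold in the fit over every gene above 0 (limma adjusted p = 0.05696). The summed Defa ratio was 2.27 without Defa24. Of the 22 members with a promoter, 1 held CTTTGAA, against 5.14% of all promoters, and 13 held CTTTGAT, against 3.73%.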

Other observations

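Of the 6 pancreatic acinar markers listed, 2 had a row, and they differed in behaviour. Ctrb1, which encodes a digestive protease precursor best known from the exocrine pancreas, read 8.488, 8.8 and 9.108 FPKM in control and 36.1, 37.94 and 41.07 FPKM with MMK-1, and all MMK-1 libraries were above all control libraries (log2 fold change 2.005, SE 0.055, limma adjusted p = 1.55e-08). Cela1, which encodes an elastase, read 4.707, 5.492 and 5.128 FPKM in control and 4.405, 3.976 and 5.38 FPKM with MMK-1, the groups overlapped, and it did not pass the test (log2 fold change -0.13, limma adjusted p = 0.2156).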
